A study of Mus musculus with 9 samples.

Results

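The 8 globin genes described here comprise 4 embryonic genes (*Hba-x*, *Hbb-y*, *Hbb-bh1* and *Hbb-bh0*) and 4 definitive genes (*Hba-a1*, *Hba-a2*, *Hbb-bs* and *Hbb-bt*). They were chosen by name, as the embryonic and definitive genes of the α-like and β-like globin loci, and they are 8 of the 55450 genes counted. All 8 were among the 19371 genes tested, whose count averaged 5 or more per library; the embryonic genes passed that minimum through the embryo libraries alone. The RNA came from 7 embryos at e13.5, of which Rathke's pouch was taken, the epithelial primordium of the anterior and intermediate lobes, and from the pituitary gland of 2 adults at postnatal week 8 after the posterior lobe had been taken off. The embryos were *Sox2* Egfp/+, with an Egfp allele at *Sox2*, and all animals were of a mixed 129Sv/c57BL6J background. The genotype of the adults at *Sox2* is not given in the sources used here, and both sexes were present at both stages but sex is not given per library. Polyadenylated RNA was made into strand-specific libraries and read as pairs of 75 bases, so that gene expression in the developing gland could be compared with that in the mature gland.

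Haemoglobin is built from α-like and β-like globin chains, each of which holds a haem group that binds oxygen. In the mouse, primitive red cells from the yolk sac carry embryonic chains, whereas definitive red cells, which come from the foetal liver and later from the bone marrow, carry definitive chains. Red cells circulate through every tissue with blood vessels, and young red cells still hold globin mRNA after the loss of the nucleus.

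The read pairs counted on genes numbered 16738863, 28537311, 24816013, 18825731, 24687556, 22393725 and 25755469 in embryos 1 to 7, and 36421545 and 31191117 in adults 1 and 2. Embryos 1 and 4 stood apart from the other embryos. The share of all read pairs that was counted on a gene was 59.7% in embryo 1 and 62.8% in embryo 4, against 73.9% to 80.0% in the other 5. Pairs that aligned in several places made up 21.7% and 26.1% in these 2 libraries, against 14.1% to 19.7% in the other 5, and unmapped pairs made up 10.3% and 4.74%, against 0.863% to 2.54%. The 8 globin genes took 14.6% and 16.8% of their counted pairs, against 0.772% to 2.06% in the other embryos. Results for the globin genes are therefore given with and without them, and for the lists of other genes, apart from the macrophage markers, the number of calls is given without them. Gene levels are stated as counts-per-million (CPM), after TMM scaling of the libraries in edgeR. A gene was called differentially expressed at an adjusted p below 0.05 and a fold change above 4.

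The tissue labels were checked against their markers. Of 10 markers of adult lobe cells, 9 were called higher in the adult, with a median log2 fold change (embryo over adult) of −9.19, and *Tshb* was not called. *Gh*, which encodes growth hormone and had the highest adult mean of them, had at most 1.90 CPM in an embryo, and 53441 and 63814 CPM in adults 1 and 2. Of 10 markers of Rathke's pouch, all were detected in every embryo. Of these markers 3 were called higher in the embryo, among them the homeobox genes *Lhx4* and *Hesx1*, the median log2 fold change was 0.87 and *Pitx1* had the highest embryo mean. The counts of 9 and 3 calls were the same without embryos 1 and 4. Of all tested genes, 14.6% were called higher in the adult and 11.3% in the embryo. *Sox2*, which marks pouch progenitors, had 26.5 to 44.8 CPM in the embryos and 64.0 and 56.8 CPM in the adults, and was not called. The embryos carried an Egfp allele at *Sox2*, and the genotype of the adults there is not given. Any part of this allele in the *Sox2* levels cannot be told apart from stage.

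Read pairs were counted on a gene only where they aligned in a single place, which bears on the definitive genes, because each has a near-identical neighbour. The coding sequences of *Hba-a1* and *Hba-a2* have 429 bases each and differ at 1 base, C381T, with positions counted from 1 at the A of the start codon and the base of *Hba-a1* first. Those of *Hbb-bs* and *Hbb-bt* have 444 bases each and differ at 1 base, C417T, with the base of *Hbb-bs* first. The 75 coding bases around each difference, the length of a read, are shown because only read pairs that cover this base or the untranslated ends separate the genes of a pair. They are from exon 3 in GENCODE M21 (GRCm38), 5′ to 3′ on the strand of the gene, with the differing base in capitals. The stretch lies at chr11:32284306-32284380 (plus strand) in *Hba-a1*, chr11:32297123-32297197 (plus strand) in *Hba-a2*, chr7:103826665-103826739 (minus strand) in *Hbb-bs* and chr7:103812656-103812730 (minus strand) in *Hbb-bt*.
Hba-a1: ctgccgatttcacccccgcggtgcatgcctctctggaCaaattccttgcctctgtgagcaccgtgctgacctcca
Hba-a2: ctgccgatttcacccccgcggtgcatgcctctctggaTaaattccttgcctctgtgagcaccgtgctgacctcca
Hbb-bs: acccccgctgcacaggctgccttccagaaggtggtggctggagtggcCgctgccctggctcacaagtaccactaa
Hbb-bt: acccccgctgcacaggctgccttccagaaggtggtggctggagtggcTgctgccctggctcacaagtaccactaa

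Of all 75-base stretches of the reference transcript, 62.2% in *Hba-a1* and 81.0% in *Hba-a2* were also found in the transcript of another member. The share was 64.3% in *Hbb-bs* and 56.6% in *Hbb-bt*, and 0% in *Hba-x*, *Hbb-y*, *Hbb-bh1* and *Hbb-bh0*. For read pairs from fragments of 200 bases, 52.8%, 74.4%, 53.8% and 45.8% of the possible pairs of *Hba-a1*, *Hba-a2*, *Hbb-bs* and *Hbb-bt* had both reads in shared stretches. The levels of the definitive genes are therefore those of uniquely aligned pairs, and the split within each pair of neighbours is uncertain. The embryonic genes were more distinct in their coding sequence, with 76.4% identical bases between *Hbb-y* and *Hbb-bh1* and 62.0% between *Hba-x* and *Hba-a1*. The reference genome is that of a C57BL/6 mouse, which carries *Hbb-bs* and *Hbb-bt*, and strains of the 129 group carry another form of this locus. Which form each animal carried was not determined.

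The promoters are given as a description of sequence, and their part in the levels of the globin genes was not tested. RefSeq (GRCm38.p6) promoter sequences were matched for 6 of the 8 genes, with no entry for *Hbb-bh1* and *Hbb-bh0*. A window of equal length that ends just before the RefSeq start was searched on both strands for 4 short motifs. These were CCAAT; then CACCC; the GATA motif, GATA with A or T before it and A or G after it; and the TATA motif, ATAAA with T before it or A after it. CACCC was found in all 6 windows, against 30.03% of the 32851 promoter windows of the same length, and CCAAT in 5 (not in *Hba-x*), against 20.4%. The TATA motif was found in 3 windows (*Hba-x*, *Hbb-y* and *Hbb-bt*), against 11.1%, and the GATA motif in 1 (*Hba-x*), against 11.8%. A match is a description of these letters alone. The 3 windows with at most 29 bases in annotated exons are printed 5′ to 3′ on the strand of the gene, with the motifs in capitals. They lie at chr7:103853208-103853319 (minus strand) for *Hbb-y*, chr11:32296380-32296491 (plus strand) for *Hba-a2* and chr7:103827929-103828040 (minus strand) for *Hbb-bs*.
Hbb-y: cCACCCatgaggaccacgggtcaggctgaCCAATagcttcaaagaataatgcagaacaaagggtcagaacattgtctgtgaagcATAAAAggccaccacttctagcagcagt
Hba-a2: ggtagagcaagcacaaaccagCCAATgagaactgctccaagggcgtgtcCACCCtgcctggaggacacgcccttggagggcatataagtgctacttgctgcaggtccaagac
Hbb-bs: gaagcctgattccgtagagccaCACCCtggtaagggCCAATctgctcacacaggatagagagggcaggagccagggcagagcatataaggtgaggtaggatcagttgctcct

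The 4 embryonic genes had read pairs in every embryo and few or none in the adults. All 4 were called higher in the embryo, as were 11.3% of all tested genes, and all 7 embryos lay above both adults for each of them, as for 26.2% of all tested genes. *Hbb-y* (ENSMUSG00000052187.4, chr7:103851749-103853216, minus strand, GRCm38) encodes the εy chain, an embryonic β-like globin. It had 4332 CPM in the lowest embryo, a median of 11571 CPM and 128757 CPM in the highest embryo, and 0.218 and 0.112 CPM in adults 1 and 2. The adult values stand for 9 and 4 read pairs. In edgeR the log2 fold change came to 17.83 (adjusted p = 5.4e-05, standard error 2.43), and the ratio of the mean embryo level to the pooled adult level was 236999, with a 95% counting interval of 138593 to 445103. Without embryos 1 and 4 the log2 fold change was 15.88 (adjusted p = 1.2e-07), and the mean of the other 5 was 10221 ± 3335 CPM (SD, n = 5). Intervals and floors of this kind cover counting error only, since copies of a molecule made by PCR were not told apart. In bulk samples, fewer cells of a type and less RNA per cell cannot be told apart.

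*Hba-x* (ENSMUSG00000055609.8, chr11:32276400-32278116, plus strand) encodes the ζ chain, the embryonic α-like globin. It had 308 CPM in the lowest embryo, a median of 952 CPM and 11437 CPM in the highest, and 0.0242 and 0.0281 CPM in adults 1 and 2, a single read pair in each. These read pairs lie below the floor of 3 that is used below for genes with no adult read pair. The ratio of the mean embryo level to the pooled adult level is therefore given by its counting interval alone, 37161 to 1108444. The gene was called (adjusted p = 1.5e-04). *Hbb-bh1* (ENSMUSG00000052217.6, chr7:103841637-103843164, minus strand), which encodes the βh1 chain of primitive red cells, had 56.3 CPM in the lowest embryo, a median of 200 CPM and 1880 CPM in the highest. Neither adult had a read pair on it. Against a floor of 3 read pairs over both adult libraries together, the embryo mean was higher by at least 15939-fold, and the lowest embryo by at least 1443-fold (adjusted p = 2.6e-04). *Hbb-bh0* (ENSMUSG00000085700.1, chr7:103850020-103850148, minus strand) is annotated as an unprocessed pseudogene of the β-like locus. It had 1.76 CPM in the lowest embryo, a median of 5.94 CPM and 68.0 CPM in the highest, which were 55 to 965 read pairs, and none in either adult. Against the same floor the embryo mean was higher by at least 578-fold and the lowest embryo by at least 45.2-fold (adjusted p = 0.0030). Embryo 7 was the lowest for all 4 genes, and embryo 4 was the highest for all but *Hbb-bh1*, which was highest in embryo 1. All 4 were also called without embryos 1 and 4, where the mean levels of *Hba-x*, *Hbb-bh1* and *Hbb-bh0* were 770 ± 304, 171 ± 82.8 and 4.46 ± 1.99 CPM (SD, n = 5).

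**Figure D1:**
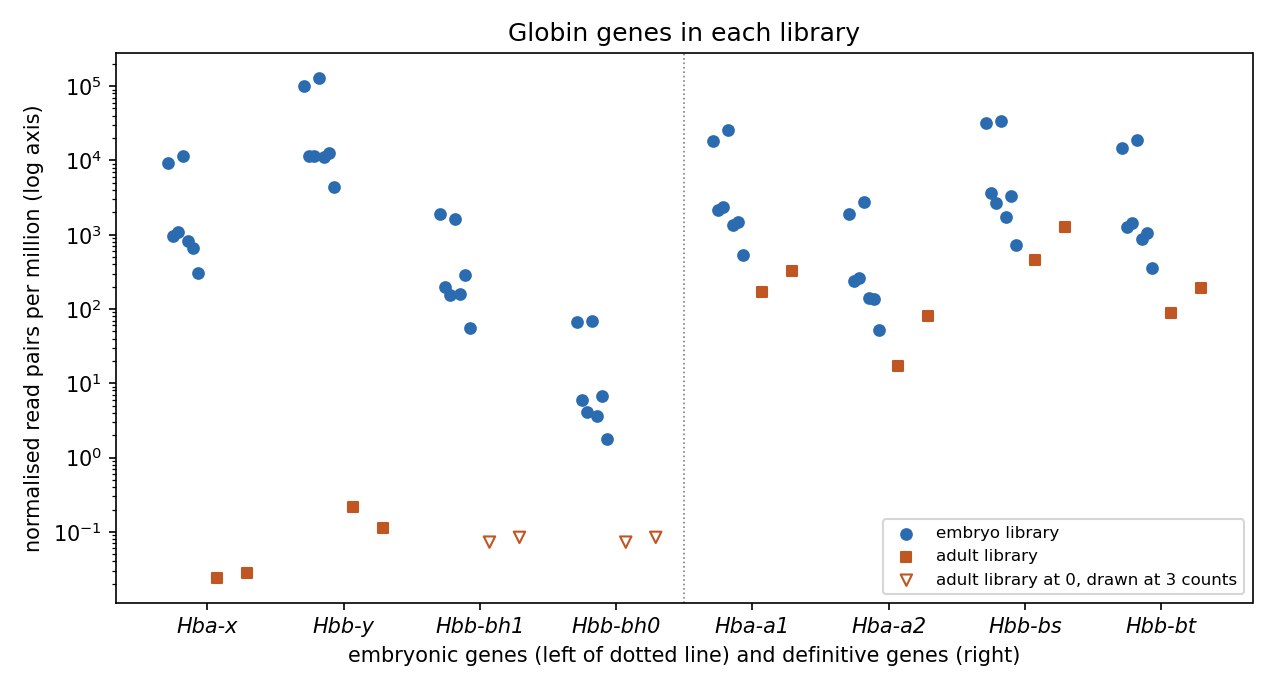
Level of each globin gene in each library, in CPM on a log axis, with embryos 1 to 7 (circles) and adults 1 and 2 (squares) from left to right within each gene; open triangles mark adult libraries with no read pair, drawn at the level of 3 read pairs. Embryonic genes are at most 0.218 CPM in the adults, whereas the definitive genes are at 17.3 CPM or more there, and embryos 1 and 4 are the 2 highest points of every gene.

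The 4 definitive genes were found at both stages. All 4 were called higher in the embryo with all libraries in the fit, as were 11.3% of all tested genes. Without embryos 1 and 4, 2 of them were called. *Hba-a1* (ENSMUSG00000069919.7, chr11:32283511-32284465, plus strand) encodes the α chain of definitive haemoglobin. It had 541 CPM in the lowest embryo, a median of 2182 CPM and 25862 CPM in the highest, and 168 and 325 CPM in adults 1 and 2. The mean was 29.996-fold higher in the embryo (log2 fold change 4.91, standard error 1.56, adjusted p = 0.0171). Every embryo lay above both adults, and without embryos 1 and 4 the log2 fold change was 2.698 (adjusted p = 0.0012). *Hba-a2* (ENSMUSG00000069917.7, chr11:32296489-32297298, plus strand) encodes the same α chain. It had 52.8 CPM in the lowest embryo, a median of 242 CPM and 2778 CPM in the highest, and 17.3 and 80.3 CPM in adults 1 and 2. The mean was 16.2-fold higher in the embryo (log2 fold change 4.01, standard error 1.53, adjusted p = 0.0397). The groups overlapped, since embryo 7 lay below adult 2, and the gene was not called without embryos 1 and 4, with a log2 fold change of 1.78 (adjusted p = 0.0299).

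*Hbb-bs* (ENSMUSG00000052305.6, chr7:103826534-103828096, minus strand) encodes a definitive β chain and was the most abundant globin gene of the adults. It had 730 CPM in the lowest embryo, a median of 3336 CPM and 33646 CPM in the highest, and 454 and 1275 CPM in adults 1 and 2. The mean was 12.9-fold higher in the embryo (log2 fold change 3.69, standard error 1.47, adjusted p = 0.0478). The groups overlapped at embryo 7 and adult 2, and without embryos 1 and 4 the log2 fold change was 1.501 (adjusted p = 0.0397) and the gene was not called. *Hbb-bt* (ENSMUSG00000073940.3, chr7:103812524-103813996, minus strand) encodes the same definitive β chain, since C417T leaves the coded chain unchanged. It had 357 CPM in the lowest embryo, a median of 1277 CPM and 18885 CPM in the highest, and 88.3 and 194 CPM in adults 1 and 2. The mean was 39.0-fold higher in the embryo (log2 fold change 5.28, standard error 1.68, adjusted p = 0.0170). Every embryo lay above both adults, and without embryos 1 and 4 the log2 fold change was 2.83 (adjusted p = 7.9e-04). The 95% intervals of the 4 log2 fold changes were wide, from 0.55 to 6.83 for *Hbb-bs* and from 1.69 to 8.88 for *Hbb-bt*. Once the effects of transcript length and GC content had been taken out of each library, none of the 4 was called, with log2 fold changes of 1.44 to 3.21 and adjusted p of 0.0814 to 0.327, and none was called without adult 1 or without adult 2. The median log2 fold change was 4.46 for the definitive genes and 16.90 for the embryonic genes, or 15.38 with the 2 genes at 0 in the adults set to their floor, against −0.04 for all tested genes.

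**Figure D2:**
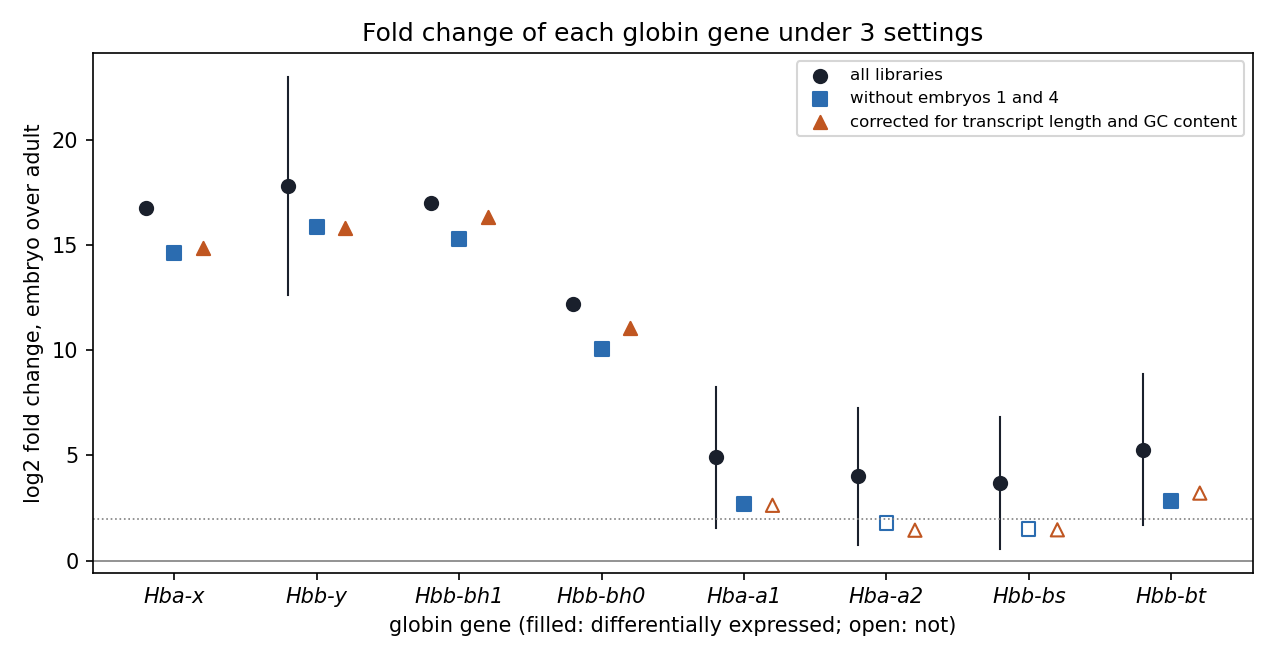
Log2 fold change of each globin gene, embryo over adult, with all libraries (circles, with the 95% interval where the adults held more than 3 read pairs), without embryos 1 and 4 (squares) and after correction for transcript length and GC content (triangles); filled marks were called and open marks were not, and the dotted line is a fold change of 4. The embryonic genes are filled throughout, at 10.06 to 17.83, although the values of *Hba-x*, *Hbb-bh1* and *Hbb-bh0* depend on how the model treats counts at or near 0, whereas all 4 definitive genes are open after the correction.

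The make-up of globin mRNA was described by shares within a library, which do not depend on scaling between libraries. With 7 against 2 libraries there are 36 assignments to the groups, so the smallest 2-sided p of an exact permutation test is 0.0556 and no share could reach 0.05; adjusted over the 8 shares compared, this becomes 0.0635. Since only the definitive genes lose read pairs to a near-identical neighbour, the shares of embryonic against definitive genes are raised by an amount that was not measured. Embryonic genes held 62.5% of the uniquely aligned globin read pairs in the lowest embryo, a median of 65.6% and 74.8% in the highest. In adult 1 they held 0.0333% (exact 95% interval 0.0160% to 0.0612%, 10 of 30067 read pairs) and in adult 2 0.00749% (0.00243% to 0.0175%, 5 of 66730). The embryo mean was 67.5% ± 5.11 (SD, n = 7), the adult mean 0.0204% ± 0.0182 (SD, n = 2), and all 7 embryos lay above both adults (exact permutation p = 0.0556). Embryos 1 and 4, with 62.5% and 63.6%, were at the low end with embryo 2 at 63.2%, so the libraries with the most globin did not have the highest embryonic share. Embryos 5 and 7, with 74.8% and 73.6%, had the highest shares. Without embryos 1 and 4 the difference between the stage means was 69.3 percentage points, against 67.5 with them.

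By uniquely aligned pairs, the embryonic share was larger in the β-like locus than in the α-like locus. Among β-like read pairs, *Hbb-y*, *Hbb-bh1* and *Hbb-bh0* held 68.6% in the lowest embryo, a median of 74.0% and 81.3% in the highest, and 0.0402% and 0.00765% in adults 1 and 2. Among α-like read pairs, *Hba-x* held 28.2% in the lowest embryo, a median of 29.6% and 35.3% in the highest, and 0.0130% and 0.00692% in the adults. The highest α-like share of any embryo lay below the lowest β-like share. The β-like locus gave most globin read pairs at both stages, with 80.9% in the lowest embryo, a median of 83.7% and 88.4% in the highest, and 74.5% (exact 95% interval 74.0% to 75.0%) and 78.4% (78.0% to 78.7%) in adults 1 and 2. Divided by transcript length, the mean β-like share was 87.1% ± 2.25 (SD, n = 7) in the embryo and 77.1% ± 2.36 (SD, n = 2) in the adult. For each of these 3 shares the embryos lay above both adults (exact permutation p = 0.0556, the smallest possible). Shares that set the loci side by side carry the loss of read pairs in the definitive genes, and without *Hba-a1* and *Hba-a2* the difference in the embryonic share of all globin was 75.7 percentage points.

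**Figure D3:**
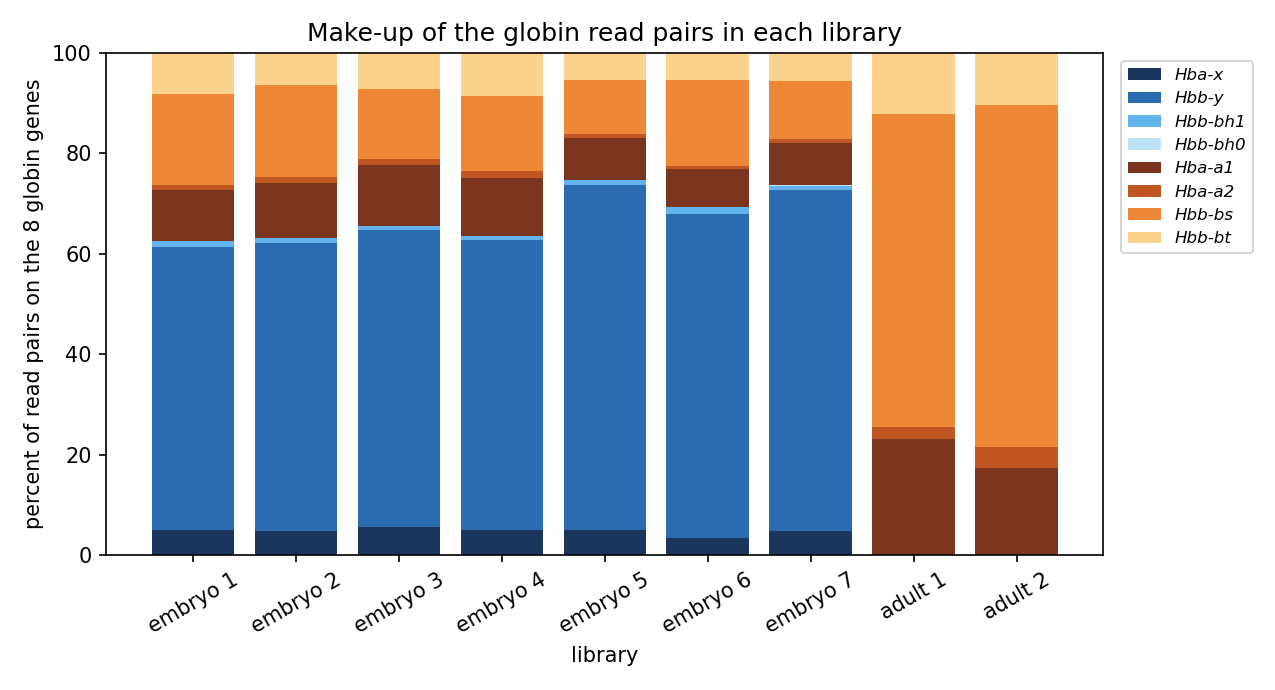
Share of the read pairs on the 8 globin genes held by each gene in each library, in percent; blue shades are embryonic and orange to brown shades definitive genes. *Hbb-y* is the broadest band in every embryo, the embryonic bands together reach 62.5% to 74.8% there, and they cannot be seen in the adults, where *Hbb-bs* is the broadest band.

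Inside the pairs of related genes, the balance was set as follows. *Hbb-y* outnumbered *Hbb-bh1*, the β-like gene that precedes it in primitive red cells, and held 97.8% to 98.8% of their joint read pairs in the embryos (median 98.6%). In the adults all read pairs of these 2 genes were on *Hbb-y*, 9 of 9 (exact 95% interval from 66.4%) and 4 of 4 (from 39.8%), too few to show a difference from the embryos. Of the read pairs on *Hbb-bs* and *Hbb-bt*, *Hbb-bt* held 23.8% in the lowest embryo, a median of 32.8% and 35.95% in the highest, against 16.3% (15.8% to 16.8%) and 13.2% (12.9% to 13.5%) in adults 1 and 2. All embryos lay above both adults (means 31.1% ± 4.49, n = 7, and 14.8% ± 2.16, n = 2; exact permutation p = 0.0556), and the difference was 16.4 percentage points, or 15.4 without embryos 1 and 4. *Hba-a1* held 90.0% to 91.5% of the read pairs on *Hba-a1* and *Hba-a2* in the embryos (median 90.4%), 90.7% (90.0% to 91.3%) in adult 1 and 80.2% (79.5% to 80.8%) in adult 2. Here the groups overlapped (exact permutation p = 0.333), and the difference of the means rested on adult 2, since it was 5.15 percentage points with both adults and −0.0926 without adult 2. Only uniquely aligned pairs enter these shares, and the part that the shared sequence has in them was not tested.

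Levels per kilobase of transcript were ordered within the embryonic and within the definitive genes only, because uniquely aligned pairs were lost from the definitive genes alone and the levels are not corrected for it. Among the embryonic genes, *Hbb-y* had a mean of 63328 CPM per kilobase in the embryo, *Hba-x* 3724, *Hbb-bh1* 1015 and *Hbb-bh0* 175, and this order was the same in each of the 7 embryos. By uniquely aligned pairs, *Hbb-y* ranked 1 among all genes on this scale in 6 embryos and 3 in embryo 7. Among the definitive genes, *Hbb-bs* had a mean of 14529 CPM per kilobase in the embryo, *Hba-a1* 9122, *Hbb-bt* 7833 and *Hba-a2* 1183. The order was the same in each embryo and in both adults, where the means were 1126, 304, 201 and 73.2 CPM per kilobase. The share of pairs lost differs between these 4 genes, so the size of the steps is uncertain. The order of stage means hides a spread that is larger than most of its steps, since between the highest and the lowest embryo the level of 1 gene differed 29.7-fold (*Hbb-y*) to 52.9-fold (*Hbb-bt*). Between the adults, adult 2 was 1.93-fold higher for *Hba-a1*, 4.64-fold for *Hba-a2*, 2.81-fold for *Hbb-bs* and 2.20-fold for *Hbb-bt*.

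The summed level of the embryonic genes was 111859, 12526, 12834, 141883, 12218, 13553 and 4698 CPM in embryos 1 to 7, and 0.242 and 0.140 CPM in adults 1 and 2. That of the definitive genes was 67025, 7308, 6745, 81170, 4126, 5973 and 1681 CPM, and 728 and 1875 CPM in the adults. Embryos 1 and 4 were the 2 highest embryos for each of the 8 genes, as for 11.4% of all tested genes. Embryo 7 was the lowest for both sums, and embryos 2, 3, 5 and 6 lay between it and embryos 1 and 4. As a share of all counted read pairs, globin was 5.68% ± 6.89 (SD, n = 7) in the embryo and 0.148% ± 0.0929 (SD, n = 2) in the adult (exact permutation p = 0.0556). The difference of 5.53 percentage points became 1.52 without embryos 1 and 4, and all 5 remaining embryos lay above both adults. The lowest embryo had 0.772% (exact 95% interval 0.769% to 0.776%) and the higher adult 0.214% (0.212% to 0.216%).

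Other genes of red cells were read from lists, to see which moved beside globin. Of 26 genes for the red cell membrane, enzymes and chaperones, 23 were tested, 8 were called higher in the embryo and 1 in the adult, against 11.3% and 14.6% of all tested genes, and the median log2 fold change was 1.57. *Slc4a1*, the anion exchanger of the red cell membrane, had 16.9 CPM in the lowest embryo, a median of 41.3 and 316 CPM in the highest, and 1.33 and 4.10 CPM in adults 1 and 2 (log2 fold change 5.20, adjusted p = 0.0047). Also called higher in the embryo were *Kel*, *Rhag*, *Tspo2*, *Epb42*, *Car2* and *Gypc*, and the gene called higher in the adult was *Ank1* (log2 fold change −2.89), an adaptor of the membrane skeleton. Embryos 1 and 4 were the 2 highest embryos for 16 of the 23, and the summed level was 1395 and 1985 CPM there against 492 to 630 CPM in the other embryos and 500 and 499 CPM in the adults. *Bpgm*, an enzyme that sets oxygen affinity, had the highest embryo mean of this list and was not called (log2 fold change 1.58). Without embryos 1 and 4, 7 were called higher in the embryo and 2 in the adult. Without adult 1 the counts were 1 and 0, and after the correction for length and GC content they were 9 and 0. *Ahsp* was not in the annotation, and *Car1* and *Trim58* had too few counts to be tested.

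Of 15 genes for haem synthesis and mitochondrial iron, 1 was called in each direction, with and without embryos 1 and 4. With the replicate block, 4 of them were called higher in the embryo. Of all tested genes, 11.3% were called higher in the embryo and 14.6% in the adult. The median log2 fold change of the haem list was 1.07. *Alas2*, the first enzyme of haem synthesis in red cells and the gene with the highest embryo mean of the list, had 46.3 CPM in the lowest embryo, a median of 181 and 2093 CPM in the highest. It had 33.5 and 99.2 CPM in adults 1 and 2 and was not called (log2 fold change 3.14, adjusted p = 0.0620), and the groups overlapped. The summed level of the list was 2774 and 3779 CPM in embryos 1 and 4, 679 to 1391 CPM in the other embryos, and 584 and 612 CPM in the adults. Of 23 tested regulators of red cells and of globin switching, 4 were called higher in the embryo and 2 in the adult. These counts stand beside the same 11.3% and 14.6% of all tested genes. The median log2 fold change of the regulators was −0.07. Those higher in the embryo were *Tal1* (3.87), *Nfe2* (3.62) and *Klf1* (2.74), transcription factors of red cell development given with their log2 fold changes, and *Gfi1b*, which had no read pair in either adult. Those higher in the adult were *Zbtb7a* (−2.11), which represses embryonic and foetal globin genes, and *Cbfa2t3* (−2.15). *Bcl11a*, another repressor of embryonic globin genes, had 18.03 CPM in the lowest embryo, a median of 19.7 and 36.5 CPM in the highest. It had 17.6 and 12.2 CPM in the adults and was not called (log2 fold change 0.71, adjusted p = 0.111). The regulator with the highest mean CPM was *Ldb1* in the embryo and *Chd4* in the adult, and neither was called. The counts of 4 and 2 were the same without embryos 1 and 4, but 2 were called higher in the embryo without adult 1, and none higher in the adult after the correction for length and GC content.

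**Figure D4:**
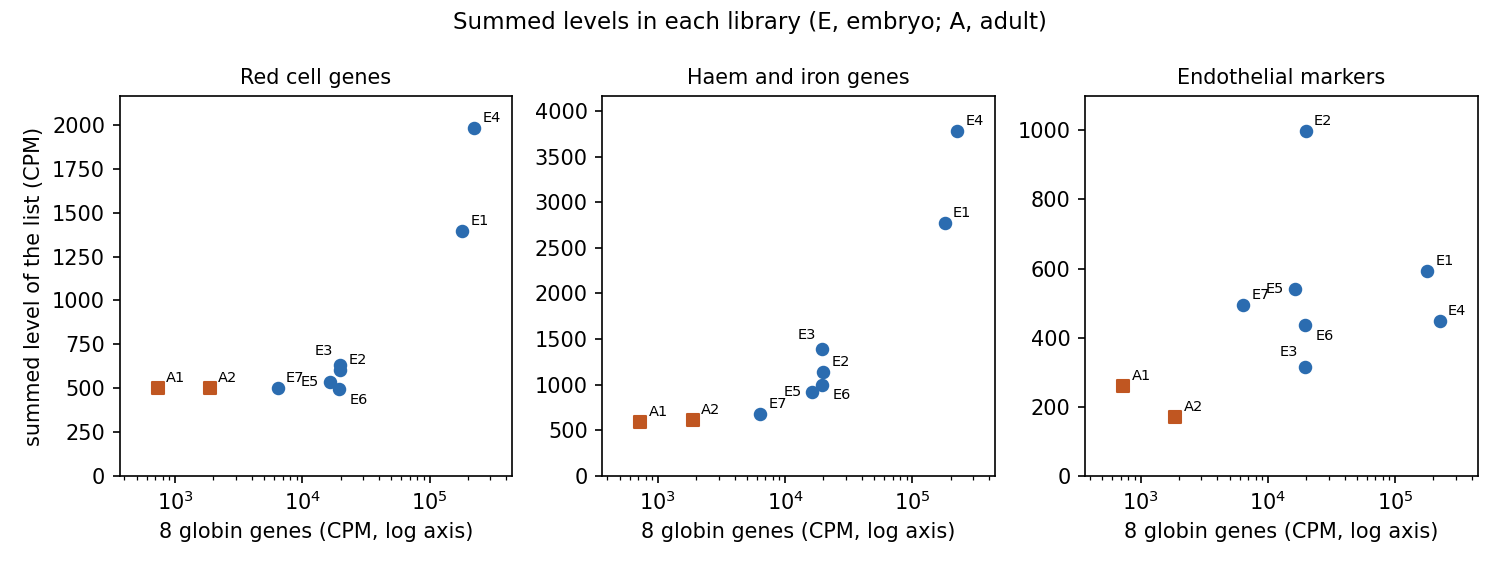
Summed level of the red cell genes, the haem and iron genes and the endothelial markers, in CPM from 0, against the summed level of the 8 globin genes in CPM on a log axis; each point is a library (E, embryo; A, adult). The red cell and haem sums are highest in embryos 1 and 4, at 1395 and 1985 CPM and at 2774 and 3779 CPM, whereas the endothelial sum is highest in embryo 2, at 999 CPM.

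Of 6 tested members of the wider globin family, 2 were called higher in the embryo and 1 in the adult. Of all tested genes, 11.3% and 14.6% were called in these directions. The median log2 fold change of the family members was 2.42. *Hbq1b*, a θ-globin gene of the α-like locus, had 0.513 CPM in the lowest embryo, a median of 2.31 and 25.4 CPM in the highest, and 0.194 and 0.309 CPM in the adults (log2 fold change 4.69, adjusted p = 0.0153). Its neighbour *Hbq1a* had a log2 fold change of 4.77 and was not called (adjusted p = 0.0504). *Mb*, the oxygen store of muscle, was called higher in the embryo (3.35), *Adgb* higher in the adult (−4.14), and *Cygb*, which had the highest CPM in every library, and *Ngb* were not called. The β-like genes *Hbb-bh2* and *Hbb-bh3* had too few counts to be tested, and the symbols *Hbb-b1* and *Hbb-b2* were not in the annotation. The counts of 2 and 1 were the same without embryos 1 and 4, but after the correction for length and GC content none was called higher in the embryo. Of 12 genes that clear haemoglobin and haem or store the iron, 3 were called higher in the embryo and 2 in the adult. These counts stand beside the same 11.3% and 14.6% of all tested genes. The median log2 fold change of these 12 genes was 0.90. *Hmox1*, which breaks haem down, had 25.8 CPM in the lowest embryo, a median of 47.9 and 175 CPM in the highest, and 4.92 and 6.63 CPM in the adults (log2 fold change 3.60, adjusted p = 0.0014). *Blvrb* (3.07) and *Ftl1* (3.31), which had the highest embryo mean of this list, were also higher in the embryo, and *Hp*, which binds free haemoglobin, and *Cd163*, which takes up that complex, were higher in the adult at 0.363 and 5.68 CPM and at 0.582 and 0.787 CPM in adults 1 and 2. For *Hp*, adult 1 lay below embryos 2, 4 and 5, and neither gene was called without adult 2 or with the replicate block. Without embryos 1 and 4, 2 genes of this list were called higher in the embryo and 3 in the adult.

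Markers of other cells of blood and vessels were read in the same way. The counts of calls stand beside 11.3% of all tested genes called higher in the embryo and 14.6% in the adult. Of 14 endothelial markers, 3 (*Emcn*, *Egfl7* and *Cldn5*) were called higher in the embryo, the median log2 fold change was 1.41, *Cldn5* had the highest embryo mean, and none had embryos 1 and 4 as its 2 highest embryos. Their summed level was 592, 999, 315, 448, 541, 436 and 495 CPM in embryos 1 to 7, and 259 and 169 CPM in adults 1 and 2. Without embryos 1 and 4, 5 were called higher in the embryo, and 6 without adult 1 or with the replicate block. Of 9 tested platelet markers, 3 (*Pf4*, with the highest embryo mean, *Gp9* and *Clec1b*) were called higher in the embryo, the median was 1.75, and the summed level was 30.2 to 110 CPM in the embryos and 6.98 and 18.2 CPM in the adults. *Pf4* alone had embryos 1 and 4 as its 2 highest embryos, at 34.9 and 45.2 CPM, and the sum was highest in embryo 4. The count was 3 without embryos 1 and 4 and 1 without adult 1. Of 10 tested white blood cell markers, 4 (*Ptprc*, *S100a8*, *S100a9* and *Ly6g*) were called higher in the adult, the median was −2.83 and *Coro1a* had the highest embryo mean. Adult 2 had 71.8 CPM of *S100a8* and 71.1 CPM of *S100a9*, genes of neutrophils, and adult 1 had 1.11 and 1.36 CPM, below 5 of the embryos for *S100a8*. None was called without adult 2, DESeq2 called 1, and 5 were called without embryos 1 and 4. The T cell markers *Cd3e* and *Cd3g* and the B cell marker *Ms4a1* were too low to be tested. No macrophage marker of 10 was called by edgeR (median 0.58), although 3 had an adjusted p below 0.05 with a smaller fold change, and *C1qb* had the highest embryo mean. Of 8 connective tissue markers, 5 were called higher in the embryo (median 2.30), with and without embryos 1 and 4, and *Col3a1* had the highest embryo mean. What part blood in the dissected tissue, or any of these cells, has in the globin levels was not tested.

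Finally, the genes with the pattern over the 7 embryos most like that of globin were named, by Pearson's r of log2 CPM (with 0.5 added) among 11755 genes with a mean embryo count of at least 100. The 10 genes nearest to the definitive genes and the 10 nearest to *Hba-x*, *Hbb-y* and *Hbb-bh1* made 15 genes, 5 of them in both sets and 5 in the lists above. Since embryos 1 and 4 lie apart, r served only to choose the genes, with values of 0.988 to 0.999 over 7 embryos and of 0.925 to 0.999 over the other 5. *Alas2*, *Ube2l6*, *Ncf4*, *Pdzk1ip1* and *mt-Nd6* were in both sets. Nearest to the definitive genes was *Ube2l6*, which encodes a ubiquitin-like conjugating enzyme, with 17.0 CPM in the lowest embryo, a median of 46.9 and 232 CPM in the highest, and 16.3 and 40.5 CPM in the adults. The definitive set also held *Blvrb*, *Fth1*, *Hsd3b6*, *Trim10* and *Smim20*, and the embryonic set also held *Rhd*, *1810044D09Rik*, *Rec114* and *Grap2*. *Hsd3b6*, a steroid dehydrogenase gene, had 21.1 CPM in the lowest embryo, a median of 56.1 and 558 CPM in the highest, and no read pair in either adult. Among the 15 genes, *Blvrb*, *Hsd3b6* and *Trim10* were called higher in the embryo, and none was called higher in the adult.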

How the data were processed

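The authors trimmed the reads with Trimmomatic 0.39, aligned them to mm10 with STAR 2.7.5b and deposited its raw count of read pairs per gene for GRCm38. The strand-specific column was used, and all 55450 identifiers were matched in GENCODE M21. The rows that name no gene (16.0% to 40.3% of all pairs) were left out of library sizes. Genes whose count averaged 5 or more were fitted with edgeR 4.0.16 (R 4.3.3), with TMM scaling, a quasi-likelihood test on stage alone and Benjamini-Hochberg adjustment over 19371 genes. All adjusted p-values are from this test unless another is named. Alternatives included DESeq2 1.42.0, other scalings and filters, unstranded counts, a replicate block, libraries left out, and splines of transcript length and GC content (4 degrees of freedom, mean count of at least 50). The remaining steps used Python 3.11.15 and scipy 1.17.1, and the fit was tested on simulated data.

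The members and lists were chosen with earlier results of these data known. Genes are named if they are members, are on a list, or are among the 10 nearest to the definitive or to the embryonic genes by correlation over the embryos.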

Additional observations from a re-analysis of the deposited data

Results flagged for a closer look

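Counts on the strand opposite to the 8 globin genes, a column that the comparisons did not use, were above 0. They came to 2813 read pairs over the 7 embryo libraries and 39 over the 2 adult libraries. This was 0.0364% of the count on the genes' own strand in the embryo and 0.0403% in the adult, against 4.81% and 4.49% over all genes, and what gives rise to these pairs was not tested. In 16 measures (8 gene levels and 8 shares) no single embryo library lay far from the nearest of the others relative to the range of the 7. By chance about 1 group in 20 would be singled out. This rule cannot single out a library where 2 stand apart together, as embryos 1 and 4 did for the 8 gene levels.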

How the results depend on the processing

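Over 23 alternatives, the embryonic genes kept their direction and were called wherever they were tested, with log2 fold changes of 14.66 to 17.31 for *Hba-x*, 15.80 to 18.36 for *Hbb-y*, 15.32 to 18.03 for *Hbb-bh1* and 10.06 to 13.20 for *Hbb-bh0*. A filter of at least 10 read pairs in every library, chosen after seeing the data, left 0 of the 4 called, because none was tested, and it called 2642 genes in all, against 5001. A test against a fold change of 4 called 1744 genes and a threshold of 2 called 8960. Leaving out each library in turn gave 3683 to 5290 genes, 4 embryonic genes throughout and 0 to 4 definitive genes, with 0 without either adult.

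The calls of the definitive genes changed with the setting, and the cause was not tested. With the correction for length and GC content 0 were called, with log2 fold changes of 2.63 (*Hba-a1*, adjusted p = 0.0889), 1.44 (*Hba-a2*, 0.315), 1.46 (*Hbb-bs*, 0.327) and 3.21 (*Hbb-bt*, 0.0814). With each library also recentred, chosen after seeing the data, 0 were called, at 2.88 (0.0760), 1.70 (0.258), 1.73 (0.270) and 3.48 (0.0721). The test against a fold change of 4 called 0, at unchanged log2 fold changes of 4.91 (0.125), 4.01 (0.268), 3.69 (0.316) and 5.28 (0.114). Without embryos 1 and 4, 2 were called, and *Hba-a2* (1.78) and *Hbb-bs* (1.501) fell short of the fold change. DESeq2 called all 4, and its size factors in edgeR gave 3.69 for *Hbb-bs* (adjusted p = 0.0529). Leaving out each library gave 4.17 to 5.45 for *Hba-a1*, 3.27 to 5.50 for *Hba-a2*, 3.11 to 4.61 for *Hbb-bs* and 4.58 to 5.95 for *Hbb-bt*. *Hbb-bs* was not called without embryo 1, 4 or 6 (adjusted p = 0.0571, 0.0605 and 0.0565).

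For the shares, embryo minus adult in percentage points, *Hba-x* among α-like genes moved from 30.9 to 27.6 per kilobase. *Hba-a1* among *Hba-a1* and *Hba-a2* moved from 5.15 to 5.89 per kilobase, and to −0.0926 to 10.4 when each library was left out, reversed without adult 2. The embryonic share moved from 67.5 to 75.7 without *Hba-a1* and *Hba-a2*, chosen after seeing the data, because definitive genes leave the total.

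The lists changed as well. Over all alternatives, the number called higher in the embryo ran from 0 to 4 in the wider globin family (2 before), 1 to 10 for red cell genes (8), 0 to 6 for haem genes (1), 2 to 5 for regulators (4), 1 to 5 for clearance genes (3), 1 to 8 for endothelial (3), 1 to 4 for platelet (3) and 1 to 6 for connective tissue markers (5). The number higher in the adult ran from 0 to 4 for red cell genes (1), 0 to 2 for haem genes (1), 0 to 6 for regulators (2), 0 to 3 for clearance genes (2), and 0 to 6 for white blood cell markers (4). Some of the lowest counts came without an adult library, for red cell (1) and platelet genes (1) without adult 1 and for clearance (0) and white blood cell genes (0) without adult 2.

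Library size alone moved the median log2 fold change of all genes from −0.04 to −0.26. Calls higher in the embryo were 43.6% of all calls, 34.9% with library size alone and 33.2% with the length and GC correction. The replicate block, in which the 2 same-numbered pairs are different animals (correlation of the deviations of embryo 1 and adult 1, 0.0240), called 4151 genes and all 8 globin genes. The planned relations across the 7 embryos were not run, nor with library size alone or without each embryo, because embryos 1 and 4 form a separate cluster and the other 5 are fewer than 6. With 2 adults, their spread rests on a single difference, and with 1 left out the other is assumed to vary like the embryos. At this depth an adult level below about 0.0390 CPM could not be told from 0.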
